A study of Mus musculus with 6 samples.

Results

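The genes described here encode 7 alpha, beta and gamma subunits of the GABA-A receptor: Gabra2, Gabra3, Gabra4, Gabra5, Gabrb1, Gabrb2 and Gabrg3. They were chosen by name, as the probe sets annotated with exactly 1 of these symbols. Each gene had 1 such probe set, and all 7 were bright enough to be tested, among 15619 genes tested in all and 41345 probe sets on the array. The tested animals were 3 male Atrx conditional knockout mice (Chx10Cre+/-;Atrx flox/y), set against 3 male wildtype littermates (Chx10Cre-/-;Atrx flox/y). The mice of both groups carry the floxed Atrx allele and differ in the Cre transgene, so that an effect of Cre and an effect of losing Atrx, which encodes a chromatin remodeller, cannot be told apart. Chx10 is expressed in retinal progenitors, and cells of the retina that do not descend from a Cre-expressing progenitor keep the allele intact. Whole retinas of both eyes were pooled per sample at postnatal day 17, the age that the series' design text gives as the peak of amacrine and horizontal cell loss. Expression was read on Affymetrix mouse gene arrays as log2 values after RMA. RMA removes background, gives the probe values of all arrays the same distribution and then combines the probes that belong to 1 probe set. The array medians of the combined values ran from 5.57 to 5.64.

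The GABA-A receptor is a chloride channel built of 5 subunits around a central pore, and it carries fast inhibition wherever GABA is released. The common form holds alpha, beta and gamma subunits: GABA binds between alpha and beta, benzodiazepines between alpha and gamma, and the alpha subunit sets much of the kinetics and the place of the receptor in the cell. In the retina GABA comes mainly from amacrine and horizontal cells, while receptors of this class sit on bipolar, amacrine and ganglion cells. Amacrine cells thus both release GABA and receive it. The comparison asks which subunit genes differed in whole retina at this age. In whole tissue, fewer cells of a type and less RNA per cell cannot be told apart.

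The tissue label was checked against markers. Rod genes were bright on all arrays, with Gnat1 between 13.65 and 13.72, and bipolar, amacrine, ganglion and Muller glia markers were measured too. Knockout 2 and wildtype 1 carried lens RNA: the 12 tested lens markers averaged 10.1 and 11.4 there on the log2 scale, while the remaining 4 arrays lay between 5.69 and 6.15. Results are therefore also given without these 2 arrays. The 7 tested pigment epithelium markers varied as well, with means from 9.26 on knockout 1 to 10.44 on wildtype 2 and overlap between the groups. The part of that variation in the results was not tested. Atrx itself had log2 values of 8.42, 8.72 and 8.33 in knockout retina, against 9.04, 8.86 and 9.17 in wildtype retina (log2 change -0.53, SE 0.12, limma adjusted p = 0.115). All 3 knockout values lay below the 3 wildtype values, and the position of the probes relative to the floxed exons was not examined here. Of 17 alternative settings, Atrx passed the threshold in 1, an intensity trend and robust spread (limma adjusted p = 0.039). In the other 16 it did not pass (limma adjusted p up to 0.32).

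No member passed the threshold of an adjusted p of 0.05 in limma's test, a linear model with a spread shared across genes and Benjamini-Hochberg adjustment over all 15619 genes. Over all genes 129 passed (0.826%, 0.48% up and 0.346% down). At an unadjusted p under 0.05 there was 1 member, Gabra4, against 13.5% of all genes (6.5% lower and 6.99% higher in knockout). The values of the groups did not overlap for that same 1 of 7, against 20.3% of all genes (9.58% with knockout below wildtype, 10.7% above). The log2 changes, knockout minus wildtype, were below 0 for 4 members, against 49.1% of all genes, and above 0 for 3, with a median of -0.02 against 0.0027 over all genes tested. By these counts the 7 genes stood near the background of the array.

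Among the alpha subunits, Gabra4 showed the lowest change. The alpha4 subunit is known for receptors outside synapses and for its insensitivity to classical benzodiazepines. Gabra4 had log2 values of 6.88, 7.002 and 6.80 in knockout retina, against 7.24, 7.10 and 7.35 in wildtype retina. All 3 knockout values lay below all 3 wildtype values, with a gap of 0.094 between the nearest pair, knockout 2 and wildtype 2. The mean was 6.89 ± 0.10 in knockout and 7.23 ± 0.13 in wildtype retina (SD, n = 3 each), a log2 change of -0.33 with a 95% interval from -0.55 to -0.12. The difference corresponds to a 1.26-fold lower value in knockout, it ranked 625 of 15619 genes by p, and it missed the threshold (limma adjusted p = 0.18). The exact permutation p over the 6 arrays was 0.1, the smallest that 3 against 3 allows. Without the lens-rich arrays the log2 change was -0.38 (limma adjusted p = 0.275).

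The other 3 alpha subunits overlapped between the groups. Gabra2, the gene of a synaptic alpha subunit, had log2 values of 8.76, 8.92 and 8.68 in knockout and of 8.58, 8.64 and 8.89 in wildtype retina. Its highest knockout and wildtype values, knockout 2 and wildtype 3, were almost the same. The log2 change was 0.08, with a 95% interval from -0.16 to 0.33 (limma adjusted p = 0.768). Gabra3, another gene of a benzodiazepine-sensitive alpha subunit, had log2 values of 8.97, 8.999 and 8.80 in knockout and of 8.81, 8.88 and 8.91 in wildtype retina. Knockout 3 lay at the bottom of the range together with wildtype 1. The log2 change was 0.06, with the interval from -0.13 to 0.25 (limma adjusted p = 0.788), that is from 0.914 to 1.19 as a ratio of knockout to wildtype. Gabra5, whose product in hippocampus is known for tonic inhibition, had log2 values of 6.20, 6.06 and 5.94 in knockout and of 6.08, 6.10 and 6.08 in wildtype retina. The wildtype values were nearly equal and lay inside the knockout range. The log2 change was -0.02, with the interval from -0.21 to 0.18 (limma adjusted p = 0.95), and ratios below 0.863 or above 1.13 lay outside it. Without the 2 lens-rich arrays the log2 change of Gabra2 was -0.05, that of Gabra3 was -0.0068 and that of Gabra5 was -0.01, so the direction of the first 2 turned.

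The beta subunits, which form one face of the GABA site and are needed for the receptor to reach the surface, differed by less than the spread between arrays. Gabrb1 had log2 values of 6.95, 7.44 and 7.08 in knockout and of 7.21, 6.96 and 7.14 in wildtype retina. Knockout 2 alone lay above all wildtype values, and the 3 knockout values spanned 0.496 on the log2 scale. The log2 change was 0.05, with a 95% interval from -0.25 to 0.36 (limma adjusted p = 0.899). It was -0.09 without knockout 2, -0.02 without wildtype 2 and -0.04 without both lens-rich arrays, so the data gave Gabrb1 no direction. Gabrb2 had log2 values of 7.37, 7.66 and 7.61 in knockout and of 7.72, 7.46 and 7.73 in wildtype retina. Knockout 1 was the lowest of the 6, and 2 wildtype values lay above all others. The log2 change was -0.09, with the interval from -0.34 to 0.16 (limma adjusted p = 0.762), and it was -0.11 without the lens-rich arrays.

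Gabrg3, the only gamma subunit among the members, encodes a partner of alpha and beta subunits at the benzodiazepine site. It had log2 values of 6.80, 6.98 and 6.58 in knockout, against 7.08, 6.92 and 7.16 in wildtype retina. The groups overlapped at 1 point, since knockout 2 lay above wildtype 2. The mean was 6.79 ± 0.20 in knockout and 7.05 ± 0.12 in wildtype retina (SD, n = 3 each), a log2 change of -0.27 with a 95% interval from -0.53 to 0.00067 (limma adjusted p = 0.37). The exact permutation p was 0.2. Without the lens-rich arrays the log2 change was -0.35 (limma adjusted p = 0.345), and without knockout 3 alone it was -0.16, which is over 1.5 times smaller.

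**Figure D1:**
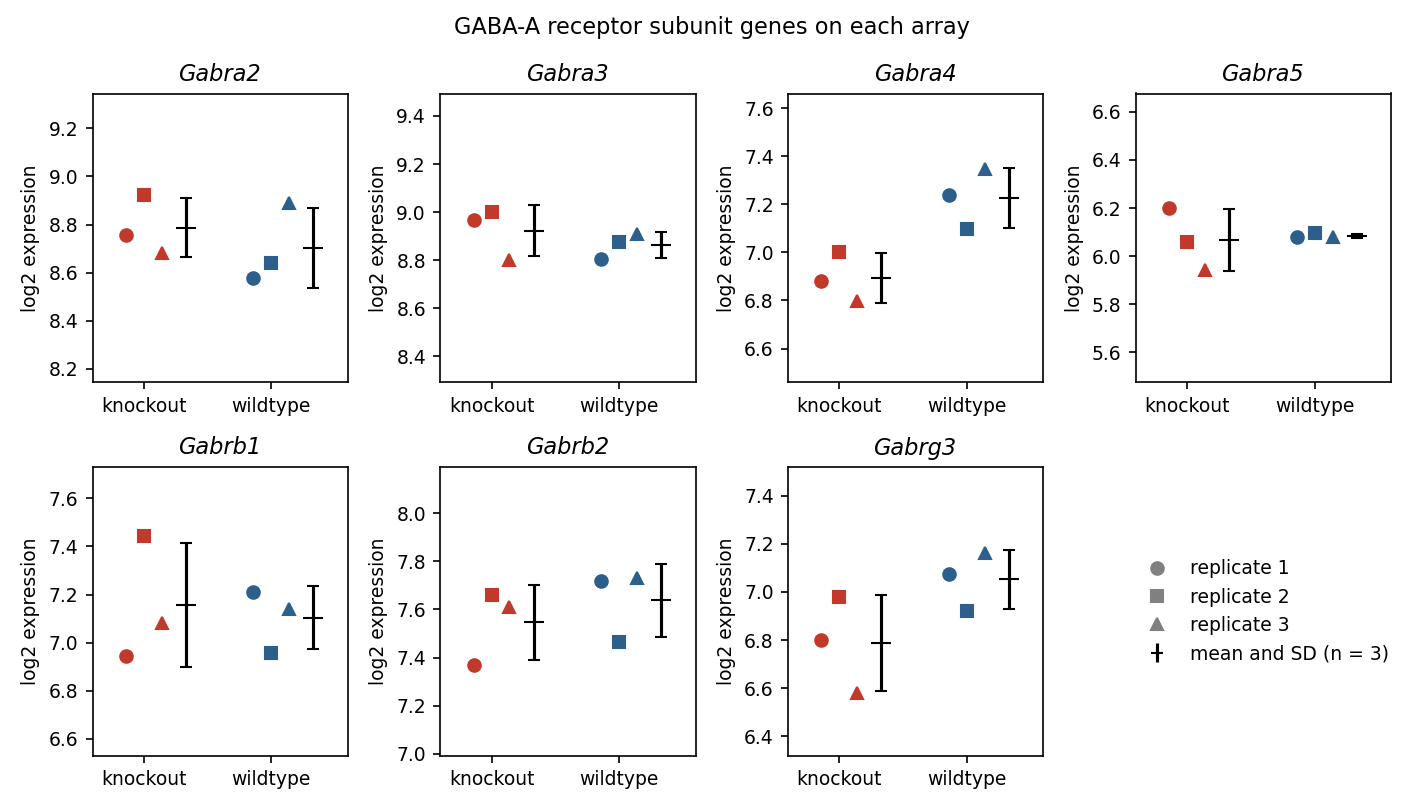
Log2 expression of the 7 subunit genes (y axis of each panel, equal spans of 1.2 log2 units placed around each gene's own mean) on 3 knockout and 3 wildtype arrays, with the mean and SD of each group in black. Gabra4 is the panel in which no knockout value reaches the wildtype values; Gabrg3 overlaps at 1 point and the other 5 panels overlap widely.

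Several members lie side by side in the genome, in the clusters typical of this gene family. In the RefSeq annotation of GRCm38.p6 Gabra2, Gabra4 and Gabrb1 neighbour each other on chromosome 5 together with Gabrg1, Gabra5 and Gabrg3 neighbour each other on chromosome 7, Gabrb2 is on chromosome 11 and Gabra3 on chromosome X. The first starts of Gabra4 and Gabrb1 lie 387 bases apart on opposite strands, and each transcript runs across the other's start. Where the probes lie relative to this overlap is not known here. The sequences around the starts of both neighbouring pairs are shown because in each pair a gene with a lower mean in knockout retina stands beside one with a log2 change near 0. Each runs 5′ to 3′ on the gene's own strand, from 250 bases before to 50 bases after a start in RefSeq's table for GRCm38.p6, and capitals mark CpG dinucleotides. The window of Gabra5 is the one the table holds and lies inside the gene's annotated span, at a start that is not its outermost.
Gabra4, chr5:71658259-71658558, minus strand: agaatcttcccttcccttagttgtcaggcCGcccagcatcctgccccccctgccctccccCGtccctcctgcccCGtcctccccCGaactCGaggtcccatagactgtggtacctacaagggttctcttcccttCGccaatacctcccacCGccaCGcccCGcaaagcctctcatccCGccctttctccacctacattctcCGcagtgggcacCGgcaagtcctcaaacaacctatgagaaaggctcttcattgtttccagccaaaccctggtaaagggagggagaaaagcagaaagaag
Gabrb1, chr5:71657671-71657970, plus strand: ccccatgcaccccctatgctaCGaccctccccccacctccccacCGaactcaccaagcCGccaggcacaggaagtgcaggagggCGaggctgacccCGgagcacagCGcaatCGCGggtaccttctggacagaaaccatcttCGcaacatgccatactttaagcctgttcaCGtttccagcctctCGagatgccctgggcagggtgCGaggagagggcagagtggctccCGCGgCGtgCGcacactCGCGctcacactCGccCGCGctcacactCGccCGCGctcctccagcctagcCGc
Gabrg3, chr7:57387166-57387465, minus strand: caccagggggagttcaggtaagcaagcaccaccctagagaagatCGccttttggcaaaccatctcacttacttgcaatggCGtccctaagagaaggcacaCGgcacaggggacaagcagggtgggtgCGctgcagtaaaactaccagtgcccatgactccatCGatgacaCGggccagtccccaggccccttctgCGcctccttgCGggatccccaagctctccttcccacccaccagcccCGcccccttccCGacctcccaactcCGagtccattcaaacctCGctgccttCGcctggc
Gabra5, chr7:57510010-57510309, minus strand: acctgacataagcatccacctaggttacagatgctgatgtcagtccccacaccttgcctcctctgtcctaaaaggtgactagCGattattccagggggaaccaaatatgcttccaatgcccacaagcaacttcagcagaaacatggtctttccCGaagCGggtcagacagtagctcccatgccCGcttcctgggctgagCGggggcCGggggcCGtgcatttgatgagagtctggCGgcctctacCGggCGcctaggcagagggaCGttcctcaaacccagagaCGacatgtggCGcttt

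The window of Gabra4 holds 12 CpG dinucleotides, the first of Gabrb1 25, and those of Gabrg3 and Gabra5 13 each. The median was 7 over 32851 promoter windows of the same length. Of all windows, 62.1% hold 12 or fewer, 63.7% hold 13 or fewer and 83.1% hold 25 or fewer. The second window of Gabrb1 holds 9. All 7 members had a window in the table, 11 windows in all. The letters TATAAA, searched on both strands, occur in 3 of the 11, which are the first window of Gabrb2 and both overlapping windows of Gabra3, against 13.6% of all windows. The letters GGGCGG, searched on both strands, occur in 4, those of Gabra2, Gabra4 and Gabrg3 and the first of Gabrb2, against 35.7% of all windows. The windows of Gabra3 hold 0 CpG dinucleotides. No binding, methylation or start site was measured here, so these letters are a description of the sequence alone.

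The log2 changes of neighbouring members were set against each other within arrays. The difference between the log2 values of Gabra4 and Gabrb1 on each array was -0.06, -0.44 and -0.28 in knockout, against 0.03, 0.14 and 0.20 in wildtype retina. Every knockout value lay below every wildtype value, and the 2 log2 changes differed by -0.39. For Gabra4 minus Gabra2 the values were -1.88, -1.92 and -1.88 in knockout, against -1.34, -1.55 and -1.54 in wildtype retina, a difference of changes of -0.42. The knockout values of this pair were within an SD of 0.024, narrower than the wildtype SD of 0.12. For Gabrg3 minus Gabra5 the values were 0.60, 0.92 and 0.64 in knockout and 0.997, 0.82 and 1.08 in wildtype retina, so the groups overlapped (difference of changes -0.25). Exact two-sided permutation p-values were 0.1, 0.1 and 0.2, and 0.15, 0.15 and 0.2 after adjustment over these 3 pairs, which were chosen after the values were seen. These differences restate the values of the single genes, give no independent support, and say nothing of the level of one probe set against another.

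**Figure D2:**
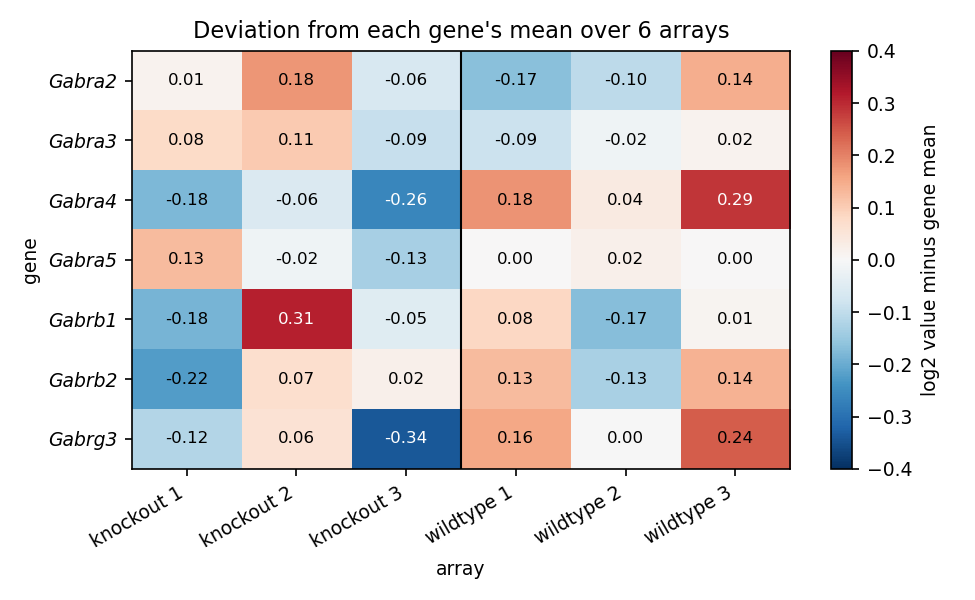
Log2 value of each subunit gene (rows) on each array (columns) minus that gene's mean over the 6 arrays, with colour from blue (below) to red (above). Gabra4 is below its mean on all 3 knockout arrays and above it on all 3 wildtype arrays, and knockout 2 stands highest among the knockout arrays for 6 of the 7 genes.

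Within a group, the order of the arrays was alike for many of the members. Knockout 2 held the highest of the 3 knockout values for 6 of 7 members, against 40.7% of all genes, and knockout 3 held the lowest for 5 of 7, against 37.8% of all genes. Among wildtype arrays, wildtype 3 was the highest for 5 of 7 (39.7% of all genes) and wildtype 2 the lowest for 4 (32.7%). Knockout 2 is one of the lens-rich arrays. The part of lens RNA in these positions was not tested. The pooled within-group SD was smallest for Gabra3 at 0.084 and largest for Gabrb1 at 0.20, which is a wider spread than in 86.4% of tested genes and limits what could be seen for Gabrb1.

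Gabra4 and Gabrg3, on different chromosomes, had the most alike pattern of any pair of members (Pearson's r = 0.94, Spearman's rho = 0.94 over 6 arrays, and r = 0.94 after subtracting the group means). Without knockout 3 and wildtype 3, the arrays farthest from the Gabra4 median, r was 0.89. After subtracting the group means, r between members ran from -0.64 for Gabra5 and Gabrb2 to 0.94 for Gabra4 and Gabrg3. It was 0.82 for Gabrb1 and Gabrb2 and 0.81 for Gabra2 and Gabra4. Gabra4 and Gabrb1, whose starts adjoin, had r = 0.20 over the 6 arrays and 0.70 after subtracting the group means. For Gabra4 the 3 tested genes with the most alike pattern over the 6 arrays were Dhx35, an RNA helicase gene (r = 0.996), Rrp1b (r = 0.994) and Atrx (r = 0.992). Gabra4 and Atrx put the 6 arrays in the same order (rho = 1), and r was 0.96 after subtracting the group means and 0.98 without knockout 3 and wildtype 3. These points share arrays, normalization and the genotype difference, and 275 of 15618 other genes reached an r of 0.9 with Gabra4. For Gabrg3 the 3 most alike genes were Ddx24 (r = 0.997), Kif5c, a kinesin motor gene (r = 0.993), and Prkacb, a catalytic subunit of protein kinase A (r = 0.99). For the other members they were Pole3, Fpgt and 4933421O10Rik with Gabra2, Ric3, Scfd1 and Plpp6 with Gabra3, Tob1, Fbxw5 and Dennd10 with Gabra5, Rmnd5a, Acin1 and Zfp871 with Gabrb1, and Gm14327, Fbxw11 and Ttc13 with Gabrb2. None of these 21 entries passed the threshold between the genotypes. All were picked for a high r over the same 6 arrays. After subtracting the group means their r ran from 0.96 for Atrx with Gabra4 to 0.998 for Tob1 with Gabra5.

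**Figure D3:**
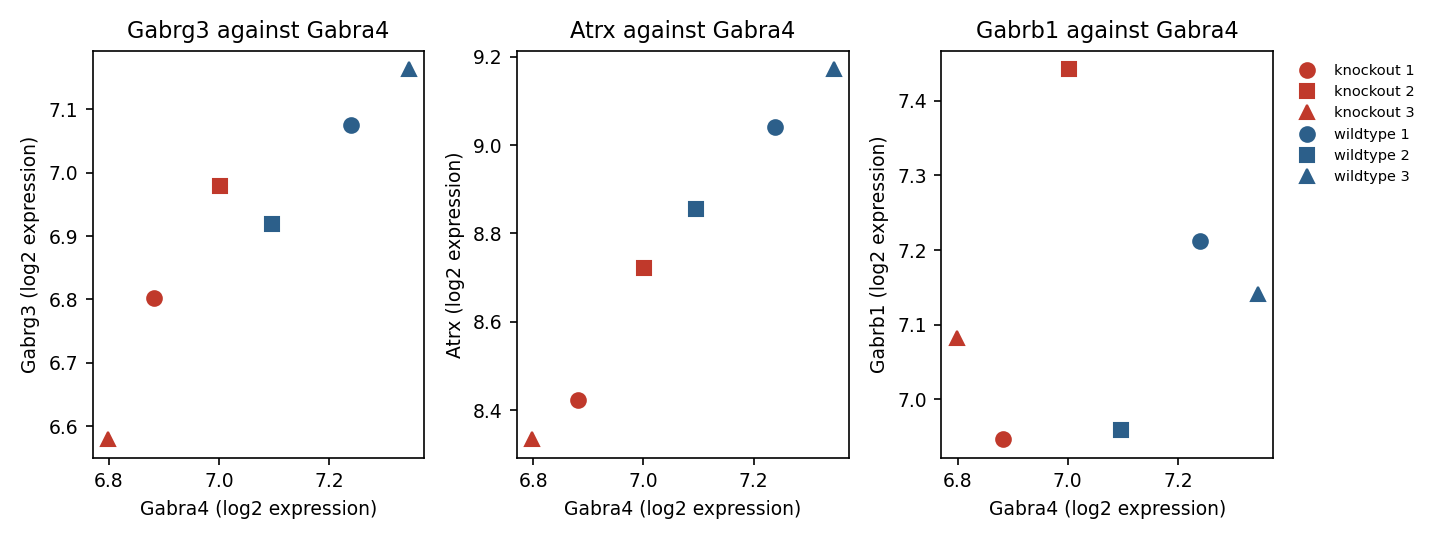
Log2 expression of Gabrg3, Atrx and Gabrb1 (y axes) against Gabra4 (x axes) on the 6 arrays, each point 1 array, coloured by genotype and shaped by replicate number. Atrx runs in the same order as Gabra4 on all 6 arrays, Gabrg3 departs from that order for knockout 2 and wildtype 2, and Gabrb1 shows no such order.

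Of 9 further GABA-A subunit genes, 3 were tested, 3 were too dim and 3 were not analysed here. None of the 3 tested passed the threshold. Gabrg1, a gamma subunit gene beside Gabra2, had log2 values of 6.32, 6.44 and 6.39 in knockout, against 6.67, 6.59 and 6.58 in wildtype retina (log2 change -0.23, SE 0.075, limma adjusted p = 0.249). Its groups did not overlap. Gabrd, which encodes the delta subunit that joins alpha4 and alpha6 in receptors outside synapses, changed by -0.27 (SE 0.12, limma adjusted p = 0.363), with knockout 3 inside the wildtype range. Gabre, with wildtype values of 5.04 to 5.15 just above the log2 floor of 5 and knockout values of 4.84 to 4.97 below it, was tested through its wildtype values alone. Its log2 change of -0.17 is given as a value only, since a gene kept in this way had to be lower in knockout. Gabra6, Gabrp and Gabrq stayed under the floor on all arrays.

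Among genes that handle GABA itself, some passed the threshold. Of 7 tested genes for GABA synthesis, uptake, vesicular loading and breakdown, 2 fell, against 0.346% of all genes, and 5 did not pass the threshold. All 7 log2 changes were below 0, against 49.1% of all genes (median -0.31 against 0.0027). The list was written with earlier results of these data known, so these counts give no independent support. Gad1, which makes GABA from glutamate, fell (-0.68, SE 0.095, limma adjusted p = 0.017), with values of 6.27, 6.40 and 6.22 in knockout, against 6.83, 7.03 and 7.09 in wildtype retina. Slc6a11, a GABA transporter, fell as well (-0.51, SE 0.081, limma adjusted p = 0.038). Gad2 changed by -0.31 and Abat, which breaks GABA down, by -0.23, and neither passed the threshold. Leaving out knockout 1, knockout 3, wildtype 2 or wildtype 3 ended the calls of Gad1 (limma adjusted p from 0.074 to 0.107) and of Slc6a11 (0.111 to 0.194), and leaving out wildtype 1 ended that of Slc6a11 (0.135).

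Of the 5 genes of other GABA receptor classes, 1 rose, against 0.48% of all genes, and 4 did not pass. Gabrr3, a rho subunit gene, rose by 0.59 (SE 0.076, limma adjusted p = 0.013), which did not hold when any 1 of the same 4 arrays was left out (0.052 to 0.093). Without both lens-rich arrays Gad1 passed (0.043), while Slc6a11 (0.095) and Gabrr3 (0.066) did not. Gabrr1 changed by 0.02, and the GABA-B receptor genes Gabbr1 and Gabbr2 by -0.12 and -0.18. Of 23 tested genes for clustering, assembly and trafficking of the receptor none passed in limma's test. At an unadjusted p under 0.05 there were 1 above and 3 below 0, against 6.99% and 6.5% of all genes. Taken in both directions, these 4 of 23 stood near the 13.5% of all genes, with more below 0 than above. The median log2 change of the 23 was -0.05. Gephyrin (Gphn), the scaffold of inhibitory synapses, was not among the 4 with the smallest p. These were Insyn2a (-0.33, limma adjusted p = 0.115) and Iqsec3 (-0.34, 0.245), both genes of inhibitory postsynaptic proteins, Hap1 (-0.23, 0.318) and Trak2 (0.18, 0.366), genes of transport adaptors. Among the chloride cotransporters, which set the gradient that the receptor uses, Slc12a5, the neuronal exporter KCC2, had a log2 change of -0.35 (limma adjusted p = 0.178) with no overlap between groups. Slc12a2, the importer NKCC1, changed by 0.17 (0.438) and Slc12a7 by -0.13 (0.566).

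**Figure D4:**
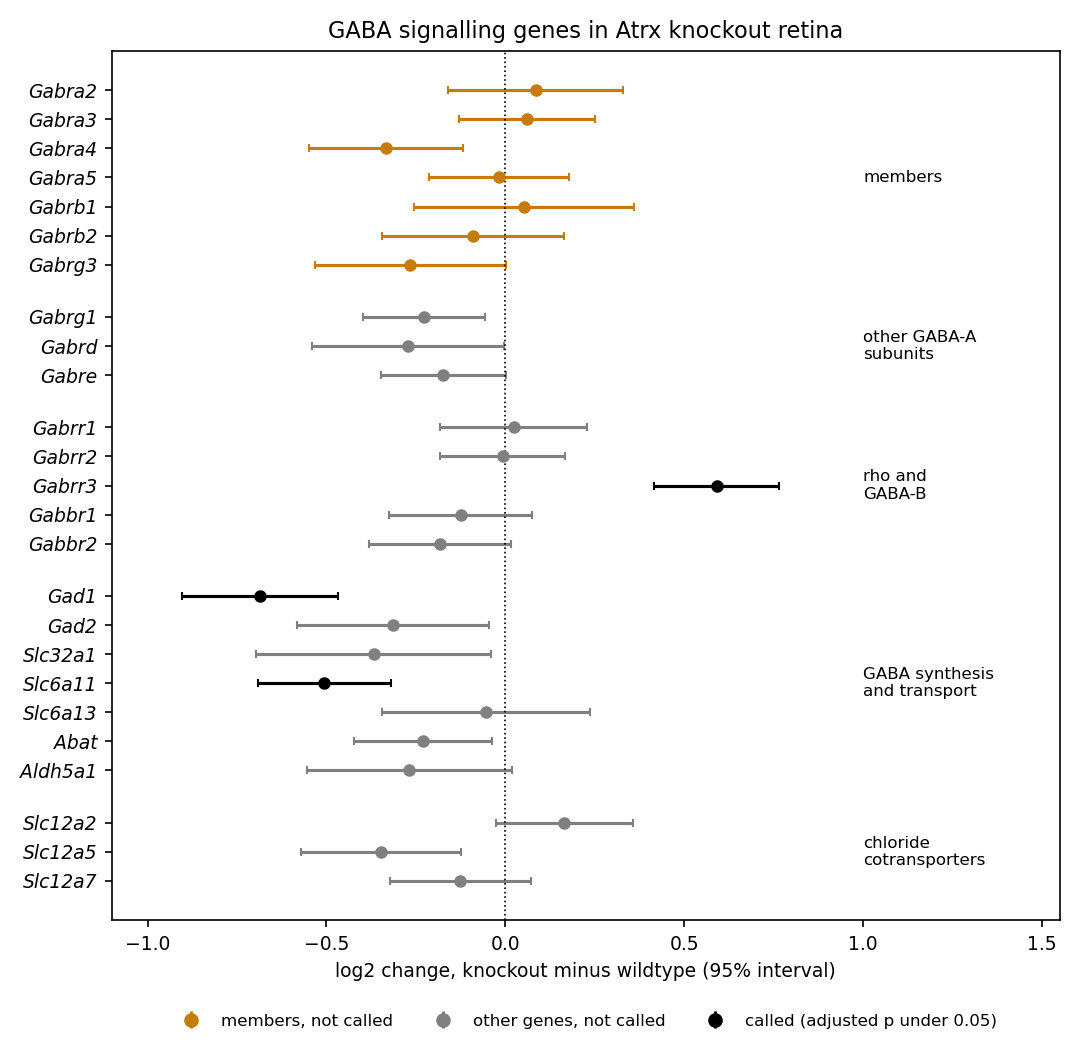
Log2 change, knockout minus wildtype (x axis), with its 95% interval for each tested GABA signalling gene (rows), in groups from the 7 members at the top to the chloride cotransporters at the bottom. Only Gabrr3, Gad1 and Slc6a11, in black, were called; among the members the interval of Gabra4 is the one that leaves out 0, and that of Gabrg3 ends at 0.00067.

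Markers of retinal cell classes were read on the same arrays, where 0.346% of all genes fell and 0.48% rose. The mean log2 value of the GABAergic amacrine markers (5 of 6 tested) was 7.96 to 8.28 on knockout arrays, against 8.37 to 8.51 on wildtype arrays, and 1 of the 5, Gad1, fell. The 5 log2 changes ran from -0.68 to -0.06. Gad1 and Gad2 are also in the list for GABA synthesis, so their values appear in both. The starburst amacrine markers (5 of 5 tested, 2 fell) averaged 6.01 to 6.21 on knockout arrays, against 6.60 to 6.70 on wildtype arrays. Their log2 changes were unlike, from -1.56 to 0.06, with 4 below 0 and 1 above. The glycinergic amacrine markers (3 of 4 tested, 2 fell) averaged 6.87 to 6.94, against 7.32 to 7.40, with log2 changes from -0.78 to -0.01. Horizontal cell markers (5 of 5 tested) averaged 7.08 to 7.39, against 7.44 to 7.48, and ganglion cell markers (7 of 8 tested) 8.83 to 8.96, against 9.001 to 9.05. No gene was called in either list. Gene by gene, the groups did not overlap for 2 of the 5 horizontal and 1 of the 7 ganglion markers, against 20.3% of all genes. The log2 changes ran from -0.40 to 0.02 for the horizontal and from -0.40 to -0.01 for the ganglion markers. Bipolar markers (7 of 8 tested) overlapped, at 9.26 to 9.37 on knockout and 9.32 to 9.41 on wildtype arrays, as did Muller glia markers, at 9.66 to 9.71 on knockout and 9.67 to 9.71 on wildtype arrays. The mean of the 7 subunit genes itself was 7.36 to 7.58 on knockout and 7.44 to 7.61 on wildtype arrays, which overlap. The part of these cell classes in the values of Gabra4 and Gabrg3 was not tested.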

How the data were processed

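Total RNA of whole retina was hybridised to 6 Affymetrix mouse gene arrays. The authors deposited 1 log2 value per probe set and array. The submitters' processing notes name RMA; no version or genome build is given in the sources used here. Quantile normalization hides changes in total RNA. Genes were named from the 23521 probe sets with 1 symbol. A probe set was tested if it reached a log2 value of 5 on at least 3 of 6 arrays, with the brightest kept per gene (15619 genes). Knockout and wildtype arrays were compared by limma's lmFit and eBayes (limma 3.58.1, R 4.3.3; genotype only, two-sided, Benjamini-Hochberg over all genes), checked on simulated data. The 3 arrays per group limit the precision: the median SE was 0.095. Replicates are separate retina samples of littermates, each pooled from both eyes; p-values measure the spread between these samples. The named genes are the 7 members, up to 4 genes per list with the smallest unadjusted p, and the 3 genes of most alike pattern per member. The members and lists were chosen with earlier results of these data known. Same-numbered arrays of the groups did not deviate together (r = -0.27, -0.38 and -0.06 over all genes). With 3 arrays per group and lens RNA on knockout 2 and wildtype 1, this cannot settle whether the numbers pair littermates. All 7 members matched the RefSeq table of GRCm38.p6, used for names, neighbours and promoter sequences. Figures were drawn with matplotlib 3.10.9.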

Additional observations from a re-analysis of the deposited data

How the results depend on the processing

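All 17 alternatives left 0 of the 7 members called. Gabra4 (-0.40 to -0.27, adjusted p from 0.111 to 0.428), Gabrg3 (-0.36 to -0.16) and Gabrb2 (-0.18 to -0.0013) kept their sign in all 17. Gabrb1 turned to -0.0025 with array weights and -0.036 without knockout 2 and wildtype 1, and ran from -0.090 to 0.158 over the fits that each leave out 1 array. Without knockout 2 and wildtype 1, Gabra2 was at -0.046 and Gabra3 at -0.0068. Leaving out 1 array, Gabra2 ran from 0.017 to 0.178, Gabra3 from 0.022 to 0.121, Gabra5 ran from -0.084 to 0.045 and Gabrr1 from -0.060 to 0.071; Gabrr1 was also at -0.00997 with a second quantile normalization. The 129 genes called over the whole array became 74 with no filter on dim probe sets, 209 with a log2 floor of 6, 282 with an intensity trend and robust spread, 74 with all probe sets tested together, 36 without knockout 2 and wildtype 1, and 25 to 141 with 1 array left out. With the replicate number as a block, 68 genes and 0 members were called. Whether these numbers pair littermates is not settled here. Gad1, Slc6a11 and Gabrr3 missed the threshold with this block (limma adjusted p = 0.052, 0.108 and 0.0596). They also missed it with all probe sets tested together (0.067, 0.107 and 0.0507). The call of Slc6a11 was also lost with no filter on dim probe sets (0.106) and with the lens covariate (0.063). Their log2 changes stayed between -0.81 and -0.63, -0.57 and -0.46, and 0.55 and 0.65 over the 17 alternatives. Atrx passed with an intensity trend and robust spread (0.039) and in none of the other 16 alternatives (adjusted p up to 0.32). Its log2 change ran from -0.64 to -0.45 over the 17. Fewer genes tested, or fewer arrays, are part of some of these settings; the cause was otherwise not tested. The centred arrays, the probe set mean and the lens covariate moved no member's sign.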
